A study of Mus musculus with 9 samples.

Results

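The genes described here are 10 feedback regulators and transcriptional targets of the RAS-ERK pathway, chosen by name from the 24060 named genes of the count table. They are the Sprouty genes Spry1, Spry2 and Spry4, the Spred genes Spred1 and Spred2, the dual-specificity phosphatase genes Dusp4, Dusp5 and Dusp6, and the ETS factor genes Etv4 and Etv5. RNA was sequenced from LSKs, marrow cells low in lineage markers and positive for Sca1 and Kit, among which the blood stem cells and multipotent progenitors are found. All groups were of the C57BL/6 strain with a labelled age of 4 months. Bone marrow was grafted into lethally irradiated congenic recipients carrying CD45.1, all recipients received doxycycline for 3 months, and the CD45.2 cells of the graft were sorted, so the residual host cells were gated out by that marker. The 3 control libraries came from C57BL/6 marrow. The 2 NHD13 libraries came from marrow with the NUP98-HOXD13 fusion, a model of myelodysplastic syndrome in which the Vav promoter drives the transgene in blood cells. The 4 libraries labelled NHD13/MSI2 carried that transgene together with a doxycycline-inducible MSI2 (KH2-Col1A1-tet-on-MSI2/ROSA26-rTTA). The labels do not say whether the control or NHD13 donors carried the ROSA26-rTTA allele, nor whether replicates came from separate mice. The p-values therefore measure the spread between these libraries, which may be technical in the transgenic groups and partly so in control. Control replicate 2 differed from replicates 1 and 3 in Xist and Y-linked transcripts (given below), so the controls were not all from the same donor.

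As background, growth factor receptors such as Kit and Flt3 pass their signal through RAS, RAF and MEK to the kinase ERK, and active ERK raises the transcription of genes that restrain the same route. Sprouty and Spred proteins act near the membrane, between the receptor and RAF, and Spred proteins bring the RAS GTPase-activating protein neurofibromin to the membrane. Dusp6 removes the activating phosphates from ERK in the cytoplasm, and Dusp4 and Dusp5 act in the nucleus. Etv4 and Etv5 belong to the PEA3 group of ETS factors, whose transcription also follows ERK signalling in many tissues. Transcripts of these genes are therefore often read as a record of recent pathway activity, although other inputs set them as well.

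To show the stretches that precede genes with large differences between groups, the 250 bases upstream of the RefSeq start of Spry1, Spry2 and Dusp6 are printed 5′ to 3′ on the strand of the gene (GRCm38.p6). They lie at chr3:37639697-37639946 on the plus strand for Spry1, at chr14:105896820-105897069 on the minus strand for Spry2 and at chr10:99262981-99263230 on the plus strand for Dusp6, and the capitals mark the letters of a PEA3-type ETS motif.
Spry1: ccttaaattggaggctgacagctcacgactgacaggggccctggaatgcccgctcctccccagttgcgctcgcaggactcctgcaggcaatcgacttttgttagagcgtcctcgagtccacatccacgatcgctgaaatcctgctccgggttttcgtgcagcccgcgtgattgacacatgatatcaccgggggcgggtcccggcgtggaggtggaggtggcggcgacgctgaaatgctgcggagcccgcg
Spry2: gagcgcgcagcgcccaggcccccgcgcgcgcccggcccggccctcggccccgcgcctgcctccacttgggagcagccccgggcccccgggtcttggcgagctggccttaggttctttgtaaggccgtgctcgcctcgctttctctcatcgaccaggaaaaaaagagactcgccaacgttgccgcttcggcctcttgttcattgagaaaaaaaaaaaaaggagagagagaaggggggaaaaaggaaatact
Dusp6: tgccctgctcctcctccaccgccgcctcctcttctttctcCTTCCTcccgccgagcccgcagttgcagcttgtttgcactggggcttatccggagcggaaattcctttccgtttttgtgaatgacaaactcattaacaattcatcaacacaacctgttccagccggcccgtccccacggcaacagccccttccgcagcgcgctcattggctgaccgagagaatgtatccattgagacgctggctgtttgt
The capitals in Dusp6 are AGGAAG read on the opposite strand. Both strands were searched for CCGGAA (ETS), AGGAAG (PEA3), TGANTCA (AP-1), TGACGTCA (CRE) and the CArG box of serum response factor, which occurred in 12%, 29.5%, 6.75%, 1.55% and 1.47% of 32851 RefSeq promoter windows of 250 bases. Windows were scanned for 7 of the 10 genes, with 8 starts in all. Spred2 held 2 PEA3 matches, Dusp6 held 1, and Dusp5 held 1 together with 2 CArG boxes that overlap none of the others, while none of the 5 motifs was found in the windows of Spry1, Spry2, Spred1 and Etv5. A match says only that the letters are there. The G and C content was 62.4% in the Spry1 and Spry2 windows and 56.4% in the Dusp6 window, against a median of 52.4% over all windows.

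The libraries held 19242153 to 23013493 counts. All 8 LSK markers were detected in each group, with Kit at 908 to 2254 CPM (counts scaled to library size with TMM factors) and Ly6a, which encodes Sca1, at 48.3 to 375 CPM. The label of the last group was not borne out by its targeted gene: Msi2 was at 223, 316 and 266 CPM in the control, at 139 and 111 CPM in the NHD13 and at 88.0, 77.1, 82.8 and 241 CPM in the labelled NHD13/MSI2 libraries, and every direction given for this group rests on its label. Whether reads of the transgene are counted under Msi2 is not given in the sources used here. Hoxd13 had 0 counts in the controls and 0.648 to 1.13 CPM in the 6 others. Replicate 4 of the labelled NHD13/MSI2 group stood apart, with a chi-square per gene of 382 to 408 against its partners, which differed from each other by 18.2 to 31.3, and with Nras at 2914 CPM against 528 to 594. Control replicates 1 and 3 held Xist at 888 and 866 CPM and the Y-linked Eif2s3y at 0.123 CPM or less. Control replicate 2 and the 6 transgenic libraries held Xist at 2.33 CPM or less and Eif2s3y at 122 to 180 CPM. Sex and genotype are therefore partly confounded. Ddx3y, also Y-linked, was at 229 CPM in control replicate 2 and at 172 and 250 CPM in NHD13. In the labelled NHD13/MSI2 libraries it was at 3.83 to 17.6 CPM, and the cause of this difference was not tested. In the library names, MPP and HSC appear for control replicates 2 and 3, and bulk appears for control replicate 1. Whether these names mark differently sorted cells was not tested. If they do, the spread between controls and every comparison with control would include that difference.

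Across the 10 genes, the Sprouty genes Spry2 and Spry4 were lower in the labelled NHD13/MSI2 libraries than in control, by 22.8-fold for the mean of Spry2 and from a mean of 3.82 CPM to a single count for Spry4. Dusp6 levels there overlapped with those in control and were lowest in NHD13, and Etv5 was low in both transgenic groups. Of the 10 genes, 9 passed the filter on low counts and were tested, and Etv4 did not. At an adjusted p under 0.01 (quasi-likelihood test of edgeR, adjusted by Benjamini-Hochberg over all 13355 genes), 2 of 9 genes were lower in the labelled NHD13/MSI2 libraries than in control, Spry2 and Spry4, and none was higher. In that comparison 11% of all tested genes were called, 6.55% lower and 4.49% higher, and DESeq2 called 4 of 9 genes and 19.5% of all. Between the labelled NHD13/MSI2 and the NHD13 libraries the test called 0 of 9, with 4 of 9 at an unadjusted p under 0.05, where it called 3.17% of all genes, 2.58% lower and 0.584% higher, and DESeq2 called 3 of 9 and 9.68% of all. Between NHD13 and control it called 0 of 9, with 4 at an unadjusted p under 0.05, against 1.03% of all genes, 0.21% lower and 0.824% higher, and DESeq2 called 2 of 9 and 4.47% of all. All comparisons share libraries with each other, and in these bulk samples fewer cells of a kind and less RNA per cell cannot be told apart.

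**Figure D1:**
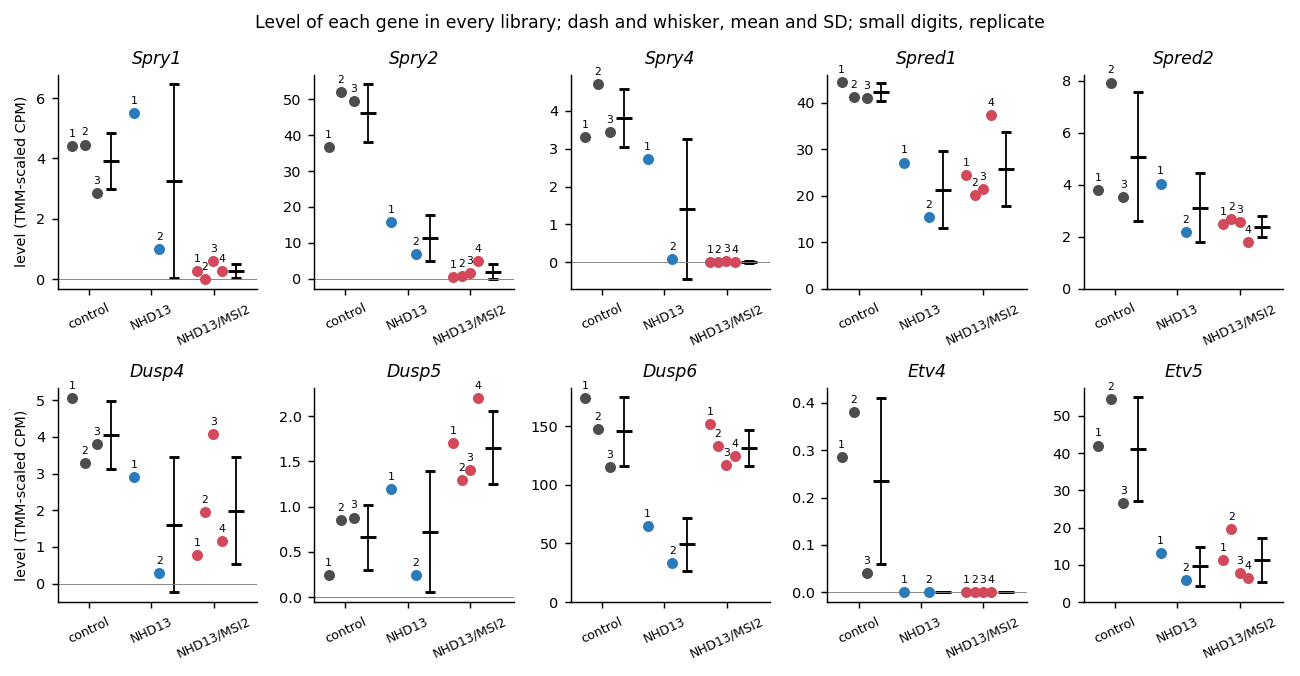
Level of the 10 genes in every library, as TMM-scaled CPM on a linear axis that differs between panels, with points for the libraries, small digits for the replicate number, and a dash with whiskers for the group mean and SD (n = 3 control, 2 NHD13 and 4 labelled NHD13/MSI2). In the labelled NHD13/MSI2 libraries Spry1 lies at 0.588 CPM or less and Spry2 at 0.414 to 5.06 CPM, with replicate 4 the highest, and Dusp6 is lowest in the NHD13 libraries (65.3 and 33.4 CPM).

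Spry2 (chromosome 14, 105891947 to 105896819, minus strand, here and below in GRCm38 with GENCODE M21) was the most abundant Sprouty gene. Its level was 36.8, 51.9 and 49.5 CPM in the control libraries, 15.9 and 6.87 CPM in the NHD13 libraries, and 0.414, 0.898, 1.72 and 5.06 CPM in the labelled NHD13/MSI2 libraries. The 3 groups did not overlap, and the order of their levels was control, NHD13 and labelled NHD13/MSI2. Within the last group, replicate 4 was the highest, at 5.01 times the mean of its partners. The group means were 46.0 ± 8.10 (SD, n = 3), 11.4 ± 6.37 (SD, n = 2) and 2.02 ± 2.10 CPM (SD, n = 4), so the labelled NHD13/MSI2 mean was 22.8-fold below control and 5.62-fold below NHD13. The log2 fold change against control was −4.54 (standard error, SE, of 0.70, adjusted p = 0.00197, edgeR's quasi-likelihood test). It was past the threshold in each fit that left out a library and under each other setting with the aligned gene names, with adjusted p from 5.63e-10 to 0.00893. Against NHD13 the log2 fold change was −2.52 (SE 0.72, adjusted p = 0.0623, same test). Without replicate 4 of the labelled NHD13/MSI2 group it was −3.44, with an adjusted p of 0.00468, and without NHD13 replicate 1 it was −1.76, with 0.405. The NHD13 libraries had a log2 fold change of −2.02 over control (SE 0.80, adjusted p = 0.296, same test), a difference that did not pass, with an interval of 2 standard errors each way from −3.63 to −0.41.

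Spry4, a relative with the same inhibitory role, was scarce throughout. It lies on chromosome 18 (38586247 to 38601415, minus strand). Controls held 81, 99 and 86 counts, the NHD13 libraries 59 and 2 counts, and the labelled NHD13/MSI2 libraries 0, 0, 1 and 0 counts. These are 3.31, 4.70 and 3.44 CPM in control and 2.71 and 0.0988 CPM in NHD13, so the labelled NHD13/MSI2 libraries lay below control and NHD13 replicate 1. NHD13 replicate 2 is itself under the floor of 3 counts, and its distance from the labelled NHD13/MSI2 libraries is not resolved at this depth. Over pooled counts, control was 290 times the labelled NHD13/MSI2 group (exact Clopper-Pearson 95% interval 51.6 to 11500) and NHD13 was 112 times it (19.3 to 4484). These intervals cover counting error only, not the spread between libraries, and 59 of the 61 pooled NHD13 counts came from replicate 1. Reads without molecular identifiers are also not independent molecules. Spry4 was lower than in control, with a fitted log2 fold change of −7.67 (SE 1.25, adjusted p = 0.00257, edgeR's quasi-likelihood test), a value that with a single count depends on the prior count of the fit. The adjusted p passed the threshold no longer without control replicate 2 (0.0101) or without replicate 3 of the labelled NHD13/MSI2 group (0.0170). Against NHD13 the log2 fold change was −6.24 (SE 1.30, adjusted p = 0.0186, same test). Leaving out NHD13 replicate 2 gave −7.15 and an adjusted p of 0.00259, and leaving out NHD13 replicate 1 gave −2.46 and an adjusted p of 0.439.

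Spry1 (chromosome 3, 37639947 to 37644598, plus strand) was at 4.42, 4.46 and 2.84 CPM in control and at 5.52 and 0.988 CPM in NHD13. In the labelled NHD13/MSI2 libraries it was at 0.259, 0, 0.588 and 0.260 CPM, where the 0 allows up to 3 counts, or 0.150 CPM. All 4 values lay below both other groups, which overlapped with each other. The mean of 0.277 ± 0.241 CPM (SD, n = 4) was 14.1-fold below control and 11.8-fold below NHD13. The log2 fold change was −3.78 over control (SE 0.90, adjusted p = 0.0161, edgeR's quasi-likelihood test) and −3.51 over NHD13 (SE 0.95, adjusted p = 0.0513), neither past the threshold. The value over NHD13 was −1.77 without NHD13 replicate 1, with an adjusted p of 0.525. Between NHD13 and control it was −0.26, with an interval from −2.21 to 1.68 that includes large changes in either direction. The exons of Spry1 share 710 of 2906 bases with Gm42922 on the opposite strand, and whether reads were counted by strand is not given in the sources used here, so reads of the pair cannot be told apart.

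Summed per kilobase of exon, the 3 Sprouty genes reached 19.9 to 27.4 CPM per kilobase in control, 10.1 and 3.65 in NHD13, and 0.287 to 2.52 in the labelled NHD13/MSI2 libraries. Spry2 made up most of this in each group, at a mean of 22.1, 5.45 and 0.969 CPM per kilobase. All 9 tested genes were higher in NHD13 replicate 1 than in replicate 2, as were 52.5% of all tested genes. The ratio of replicate 1 to replicate 2 was 1.76 in Spred1, 2.31 in Spry2 and 5.59 in Spry1.

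The Spred genes differed by less. Spred1 (chromosome 2, 117121374 to 117182279, plus strand) was at 44.5, 41.3 and 41.0 CPM in control, 27.2 and 15.5 CPM in NHD13, and 24.4, 20.1, 21.5 and 37.4 CPM in the labelled NHD13/MSI2 libraries. Both transgenic groups lay below every control library and overlapped with each other. The log2 fold change over control was −0.71 for the labelled NHD13/MSI2 libraries (SE 0.26, adjusted p = 0.0835, edgeR's quasi-likelihood test) and −0.99 for NHD13 (SE 0.32, adjusted p = 0.178). Without replicate 4, the highest of its group, the labelled NHD13/MSI2 value was −0.94 with an adjusted p of 0.00849, and in the other fits without 1 library the adjusted p reached 0.201. The difference between the transgenic groups was 0.28, with an interval from −0.32 to 0.87. Spred2 (chromosome 11, 19924375 to 20024026, plus strand) was at 3.80, 7.92 and 3.52 CPM in control, 4.05 and 2.17 CPM in NHD13, and 2.48, 2.69, 2.58 and 1.82 CPM in the labelled NHD13/MSI2 libraries. Only the labelled NHD13/MSI2 group was apart from control, by a log2 fold change of −1.08 (SE 0.41, adjusted p = 0.0975, same test), and the highest control value was that of replicate 2.

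Dusp6 had another order. The gene (chromosome 10, 99263231 to 99267489, plus strand) encodes the cytoplasmic ERK phosphatase and was the most abundant of the 10 per kilobase, with a mean of 52.1 CPM per kilobase in control. It was at 174, 148 and 115 CPM in control, 65.3 and 33.4 CPM in NHD13, and 152, 133, 117 and 124 CPM in the labelled NHD13/MSI2 libraries. Both NHD13 libraries lay below all 7 others, while the control and labelled NHD13/MSI2 values interleaved. The NHD13 mean of 49.3 ± 22.5 CPM (SD, n = 2) was 2.95-fold below the control mean of 146 ± 29.4 CPM (SD, n = 3). The labelled NHD13/MSI2 mean of 131 ± 15.2 CPM (SD, n = 4) was 2.66-fold above NHD13. The log2 fold change was −1.56 for NHD13 over control (SE 0.30, adjusted p = 0.0245, edgeR's quasi-likelihood test) and 1.41 for labelled NHD13/MSI2 over NHD13 (SE 0.28, adjusted p = 0.0161). Both missed the threshold of 0.01, and without NHD13 replicate 1 the former was −2.12 with an adjusted p of 0.00956. Without NHD13 replicate 2 they were −1.17 (adjusted p = 0.103) and 1.05 (adjusted p = 0.0591, both by edgeR). Both rest on the same pair of NHD13 libraries. The labelled NHD13/MSI2 libraries differed from control by −0.15, with an interval from −0.62 to 0.32 on the log2 scale.

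The nuclear phosphatase genes were scarce. Dusp4 (chromosome 8, 34807297 to 34819894, plus strand) was at 5.07, 3.27 and 3.80 CPM in control, 2.90 and 0.296 CPM in NHD13, and 0.776, 1.95, 4.07 and 1.17 CPM in the labelled NHD13/MSI2 libraries. Its widest spread was inside the transgenic groups, and no comparison passed (log2 fold changes −1.34, −1.02 and 0.32 for NHD13 over control, labelled NHD13/MSI2 over control and labelled NHD13/MSI2 over NHD13, with adjusted p of 0.657, 0.388 and 0.879 by edgeR's quasi-likelihood test). Dusp5 (chromosome 19, 53529109 to 53542431, plus strand) was the single gene with its highest mean in the labelled NHD13/MSI2 group. It held 6, 18 and 22 counts in control, 26 and 5 in NHD13 and 33, 26, 31 and 34 in the labelled NHD13/MSI2 libraries, or 1.65 ± 0.408 CPM (SD, n = 4) in the last. That group lay above both others without overlap, but the log2 fold changes of 1.32 over control (SE 0.69, adjusted p = 0.223) and 1.18 over NHD13 (SE 0.80, adjusted p = 0.450) did not pass the same test. With library totals in place of TMM scaling, the Dusp5 values of the transgenic groups overlapped. Its exons share 547 bases with AC137853.2 on the opposite strand. Summed per kilobase, the 3 phosphatase genes were at 43.0 to 64.2 in control, 24.9 and 12.2 in NHD13 and 43.7 to 55.3 CPM per kilobase in the labelled NHD13/MSI2 libraries, and almost all of it was Dusp6.

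Etv5 (chromosome 16, 22381309 to 22439719, minus strand) was at 42.1, 54.5 and 26.8 CPM in control, 13.3 and 5.88 CPM in NHD13, and 11.4, 19.6, 7.83 and 6.62 CPM in the labelled NHD13/MSI2 libraries. Every transgenic library was below every control library, and the transgenic groups overlapped. The labelled NHD13/MSI2 mean was 3.62-fold below control, with a log2 fold change of −1.85 (SE 0.43, adjusted p = 0.0142, edgeR's quasi-likelihood test). Without replicate 2, the highest of its group, the fold change was −2.24 with an adjusted p of 0.00652, and without control replicate 2 it was −1.60 with 0.0628. For NHD13 over control the log2 fold change was −2.10 (SE 0.56, adjusted p = 0.0951, same test). Labelled NHD13/MSI2 and NHD13 differed by 0.25, with an interval from −0.75 to 1.24. Etv4 (chromosome 11, 101769742 to 101785371, minus strand) held 7, 8 and 1 counts in the controls and 0 in each of the 6 transgenic libraries. A floor of 3 counts per library lies 1.48-fold below the control mean in the labelled NHD13/MSI2 group and 1.64-fold below it in NHD13. The control mean has counting error of its own, and control replicate 3 is itself under that floor. These values are therefore no lower bounds on a difference, and the gene was too scarce to be tested.

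**Figure D2:**
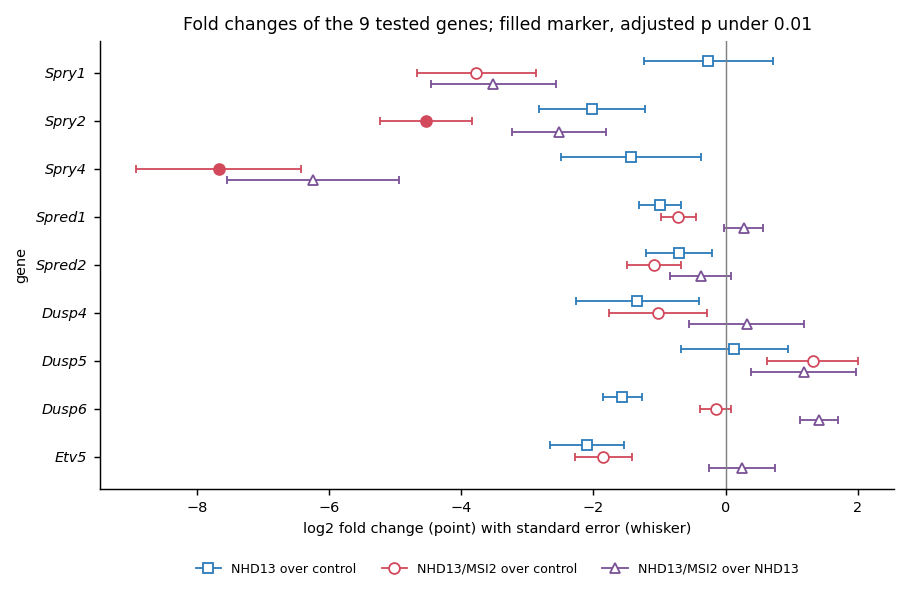
Fitted log2 fold changes of the 9 tested genes in the 3 comparisons, with whiskers of 1 standard error and filled markers for an adjusted p under 0.01 (edgeR). Spry2 and Spry4 in the labelled NHD13/MSI2 libraries over control (−4.54 and −7.67) carry the filled markers, and Dusp6 has opposite signs for NHD13 over control (−1.56) and labelled NHD13/MSI2 over NHD13 (1.41).

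Counted without a test, 6 of 9 genes were lower and 1 higher in every labelled NHD13/MSI2 library than in every control library, against 20.4% and 15.3% of all tested genes. For NHD13 and control, 6 of 9 were lower without overlap and 0 higher, against 18.5% and 18.9%. Between the labelled NHD13/MSI2 and NHD13 libraries 3 of 9 were lower and 2 higher, against 16.9% and 13%. The lower genes include Spry4, where NHD13 replicate 2 (2 counts) is not resolved from the labelled NHD13/MSI2 libraries. The higher ones include Dusp5, which overlaps with library totals in place of TMM scaling. A negative log2 fold change was found in 8 of 9 genes for labelled NHD13/MSI2 over control (50.9% of all genes), in 8 of 9 for NHD13 over control (48%) and in 4 of 9 for labelled NHD13/MSI2 over NHD13 (52.4%). At an unadjusted p under 0.05 the 3 counts were 6 of 9 (32.8% of all genes), 4 of 9 (13.5%) and 4 of 9 (21.7%), and at an adjusted p under 0.05 they were 4 of 9 (20.6%), 1 of 9 (2.89%) and 2 of 9 (8.81%). The median log2 fold change of the 9 genes was −1.08, −1.34 and 0.25 in the same order, beside −0.011, 0.017 and −0.028 over all genes. In the comparisons of the labelled NHD13/MSI2 group the median is the same with Spry4 anywhere within its counting interval. A mean that fell from control through NHD13 to labelled NHD13/MSI2 was found in 4 of 9 genes, Spry1, Spry2, Spry4 and Spred2, and in 22.8% of all genes.

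The other genes of the pathway were read from 6 lists that hold 80 tested genes. In the labelled NHD13/MSI2 libraries over control, 3 of the 80 were higher and 4 lower at an adjusted p under 0.01, beside 11% of all genes. With library totals in place of TMM scaling the split was 1 higher and 6 lower. The test called 0 of 80 for labelled NHD13/MSI2 over NHD13 and 0 of 80 for NHD13 over control, beside 3.17% and 1.03% of all genes. At an unadjusted p under 0.05 these were 16 and 15 of 80, beside 21.7% and 13.5% of all genes, and DESeq2 called 6 and 3 of 80, beside 9.68% and 4.47%. Of the kinases and scaffolds from Raf to ERK, edgeR's quasi-likelihood test called 0 of 16 in the labelled NHD13/MSI2 libraries over control (4 at an unadjusted p under 0.05, beside 32.8% of all genes, and 1 by DESeq2, beside 19.5%), and their median log2 fold change was 0.15. The other Spry, Spred, Dusp and Etv genes had a median of 0.14 over 10 tested genes, the adaptors and exchange factors 0.44 over 15, the Ras proteins and their GTPase-activating proteins 0.047 over 13, the factors downstream of ERK 0.16 over 14, and the other ERK-responsive transcripts −0.18 over 12. Each of these medians lies nearer to 0 than the −1.08 of the 9 feedback and Etv genes, which were chosen with earlier results of these data known. A median near 0 can hide single genes. The 12 ERK-responsive transcripts ranged from −4.84 (Fos) to 2.41 (Epha4), and 8 of 12 were negative. Of these, edgeR's quasi-likelihood test gave 7 of 12 an unadjusted p under 0.05, beside 32.8% of all genes. It called 1, and DESeq2 called 4, beside 19.5% of all genes.

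Among the called genes, Fos, an immediate early transcription factor, had the largest fall. It was at 531, 43.9 and 58.9 CPM in control, 26 and 7.31 CPM in NHD13 and 16.9, 4.14, 4.80 and 3.57 CPM in the labelled NHD13/MSI2 libraries, so that the log2 fold change over control was −4.84 (adjusted p = 0.00849, edgeR's quasi-likelihood test). Control replicate 1 stood far above the rest, and without it the fold change was −2.80 with an adjusted p of 0.0305. Rras2, a Ras family member, fell by 3.74 on the log2 scale (adjusted p = 0.00309), Ets2, an ETS factor phosphorylated through this pathway, by 2.71 (adjusted p = 0.00318), and Rps6ka3, a kinase activated by ERK, by 1.30 (adjusted p = 0.000998). Rps6ka2, of the same kinase family, was higher by 2.46 on the same scale (adjusted p = 0.00582), Dusp7, a cytoplasmic ERK phosphatase like Dusp6, by 1.95 (adjusted p = 0.00229), and Rasgrp2, an exchange factor for small GTPases, by 1.16 (adjusted p = 0.00294). Dusp7 was at 8.04 to 15.3 CPM in control, 17.2 and 17.3 CPM in NHD13, and 32.5 to 63.4 CPM in the labelled NHD13/MSI2 libraries, with no overlap between any of the groups. Without control replicate 1 or without control replicate 3 only Rps6ka3 remained called among the 80, and without control replicate 2, or without replicate 1 or 3 of the labelled NHD13/MSI2 group, 4 did.

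**Figure D3:**
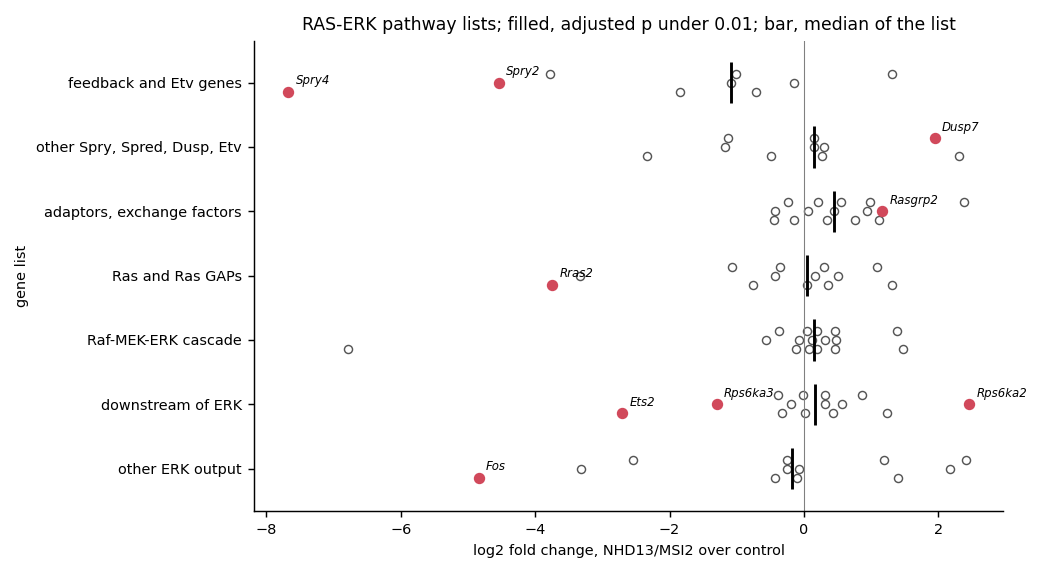
Log2 fold change in the labelled NHD13/MSI2 libraries over control for each tested gene of the feedback and Etv set (9 genes) and of the 6 pathway lists (80 genes), with filled points for an adjusted p under 0.01 and a bar at the median of each list. The median is −1.08 for the feedback and Etv genes and lies between −0.18 and 0.44 for the other lists.

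Summed markers of several cell types also differed between the groups, in different directions, and their part in the results was not tested. The summed level of 8 granulocyte-monocyte progenitor genes was 1759 to 2472 CPM in control, 3513 to 4439 CPM in NHD13 and 9150 to 15540 CPM in the labelled NHD13/MSI2 libraries, with none of its genes at 0. Of the 8, 5 had a negative log2 fold change in NHD13 over control, and 1 had one in the labelled NHD13/MSI2 libraries over control, where 2 were called higher. The 8 LSK markers summed to 4763 to 5130 CPM in control, 3234 to 3294 CPM in NHD13 and 2894 to 3569 CPM in labelled NHD13/MSI2. Of these markers, 4 of 8 had a negative log2 fold change over control in each transgenic group. The medians were 0.035 for NHD13, with 1 called lower, and −0.26 for labelled NHD13/MSI2, with 3 called lower. Mean Kit was 1938 CPM in control and 1141 CPM in labelled NHD13/MSI2, whereas mean Ly6a was 85.8 and 260 CPM. The 8 megakaryocyte genes were at 486 to 846 CPM in control, 1313 and 266 CPM in NHD13 replicates 1 and 2, and 39.6 to 73.3 CPM in the labelled NHD13/MSI2 libraries, where Gp1bb was at 0. Of 7 reported erythroid genes, the sum was 105.6 to 221.7 CPM in control, 42.3 and 12.9 CPM in NHD13 replicates 1 and 2, and 3.04 to 19.1 CPM in the labelled NHD13/MSI2 libraries, with Hbb-b1 at 0 in both transgenic groups and Slc4a1 at 0 in NHD13. The megakaryocyte, erythroid, LSK and fibroblast sums had their lowest means in the labelled NHD13/MSI2 group, as did Spry1, Spry2, Spry4 and Spred2. The granulocyte-monocyte progenitor, B cell, T cell, macrophage and dendritic cell and endothelial sums had theirs in control, and the late neutrophil sum in NHD13. In NHD13 replicate 1 the sum of every marker list was higher than in NHD13 replicate 2 (3294 against 3234 CPM for LSK), except the fibroblast sum (44.8 against 67.3 CPM). The higher level in replicate 1 was also found in all 9 tested genes, so it is particular neither to the Sprouty genes nor to these lineages. The 8 fibroblast genes were at 47.5 to 87.8, 44.8 to 67.3 and 1.49 to 36.7 CPM, with Dcn at 0 in control and in the last and Col3a1 at 0 in NHD13. Of its 5 tested genes, 1 was called lower in the labelled NHD13/MSI2 libraries over control, 2 had a negative log2 fold change, and the median was 1.62, above 0 while the sum was lower. The 8 late neutrophil genes summed to 884 to 2412, 140 to 529 and 231 to 665 CPM with none at 0. In labelled NHD13/MSI2 over control, 7 of these 8 had a negative log2 fold change (median −1.70), yet 1 was called higher and 0 lower. Higher in summed level in the labelled NHD13/MSI2 libraries than in control were the B cell (46.6 to 63.5 against 262 to 449 CPM), T cell (38.6 to 50.9 against 65.2 to 106 CPM), macrophage and dendritic cell (23.9 to 36.3 against 189 to 306 CPM) and endothelial lists (339 to 479 against 618 to 790 CPM), with none of their found genes at 0 in that group. In NHD13 these 4 lists were at 83.7 to 131, 206 to 207, 98.3 to 124 and 474 to 653 CPM. In these lists Cd3e was at 0 in control, and Ms4a1 and Cdh5 were at 0 in NHD13. Of the 8 B cell genes, 4 had a negative log2 fold change in labelled NHD13/MSI2 over control (median 0.58), with 3 called higher and 0 lower. Negative values were found in 1 of 4 tested T cell genes and in 0 of 7 tested macrophage and dendritic cell genes. Of the endothelial list, 5 of 7 tested genes had a negative log2 fold change over control in the labelled NHD13/MSI2 libraries (median −1.80), with 1 called higher and 2 lower.

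The genes with the most similar profile were sought among 10972 candidates with a mean of at least 50 counts, by the root mean square difference of centred log2 CPM over the 9 libraries. For Spry2 these were Bend4 (0.34), Camk2d (0.36) and Rab6b (0.47), for Spry1 Itpr2 (0.37), Rras2 (0.55) and Cd276 (0.58), and for Spry4 Ric3 (0.55), Gata3 (0.61) and Sestd1 (0.62). Between the Sprouty genes the differences were 1.03 for Spry1 and Spry4, 1.04 for Spry2 and Spry4 and 1.17 for Spry1 and Spry2. From Dusp6 they differed by 2.15 to 2.50. Spry1 and Spry4 have fewer than 50 counts on average and were no candidates themselves. Dusp6 was closest to Anxa1 (0.22), Tlcd2 (0.23) and Runx2 (0.25), and Etv5 to Cdk5rap1 (0.50), C1ra (0.53) and Slc28a2 (0.53). These are descriptions over 9 libraries that share their group differences.

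**Figure D4:**
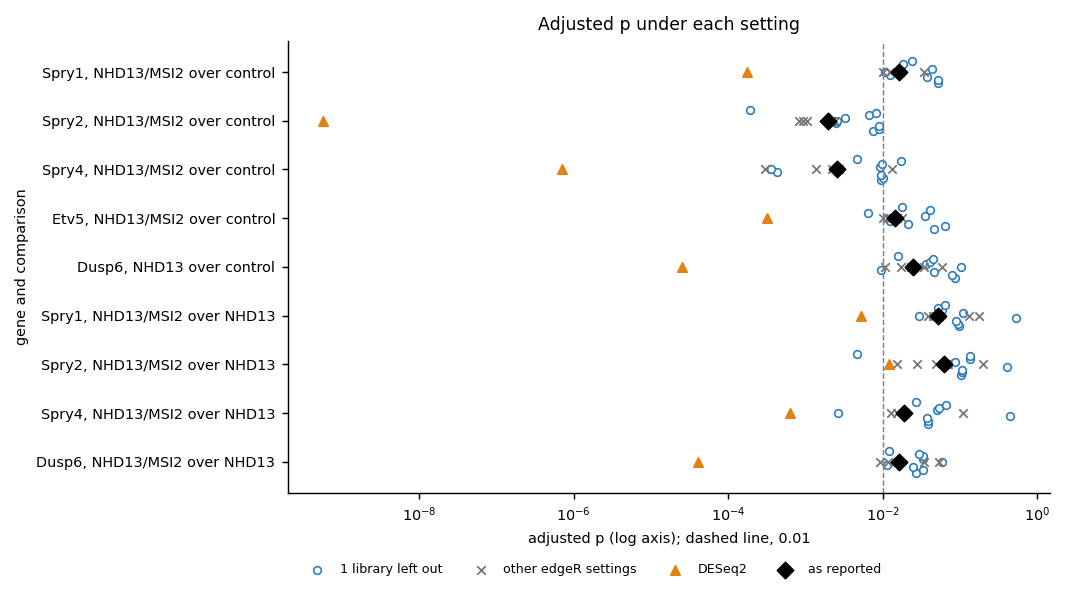
Adjusted p on a log axis for 9 gene and comparison pairs under each setting with the aligned gene names, with a black diamond for the value reported, circles for fits that left out 1 library, crosses for other edgeR settings, triangles for DESeq2, and a dashed line at 0.01. Every point of Spry2 over control lies left of the line (at most 0.00893), whereas the points of the other pairs lie on both sides of it.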

How the data were processed

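Whole-number read counts per gene were deposited by the authors as 1 table with a column for each of the 9 libraries. The submitters' processing notes name STAR, HTSeq, DESeq and the mm9 build without versions, and strandedness is not given in the sources used here. From the rows with date-like March names onward, the deposited names sit 2 rows too high, so 11942 names were moved down by 2 rows. With this move 19 of 20 highly expressed genes reached 50 CPM, against 2 to 10 under other moves. The 13 rows left unnamed held 0.0253% to 0.0323% of a library and were not used.

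Genes were filtered with filterByExpr and tested with edgeR 4.0.16 (R 4.3.3) by the quasi-likelihood test on counts, with TMM scaling, the group as the only term, all 9 libraries in the model and the threshold at an adjusted p under 0.01. The standard error is the absolute log2 fold change divided by the square root of F. The fit was tested on simulated data. DESeq2 1.42.0, other scalings, filters and thresholds, a replicate block, and leaving out each library in turn were the alternatives. For the 80 pathway genes these were added after seeing the data. Exon lengths and positions are those of GENCODE M21 (GRCm38), not of the authors' build.

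The 10 genes and all lists were chosen with earlier results of these data known. All 10 genes are named, along with up to 8 pathway genes past the threshold per comparison and, for each of the 10 with an adjusted p under 0.05, the 3 genes most like it (log2 CPM with a prior count of 2). Other genes were named after their values were seen. Of the erythroid markers, 1 is not reported here, and the sum over the 7 others was added after seeing the data.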

Additional observations from a re-analysis of the deposited data

Results flagged for a closer look

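In the 4 labelled NHD13/MSI2 libraries, Spry4 was at 0.0453 CPM in replicate 3 and at 0 in the others. With the other values tied at 0, the gap makes up the whole range of the group whatever its size. It therefore passes Dixon's 95% limit for any value above 0, and here it rests on 1 read. The test was made for 10 genes, and the rate of about 1 in 20 groups flagged by chance does not hold for values tied at 0.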

How the results depend on the processing

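Of the feedback and Etv genes, edgeR called 0 in labelled NHD13/MSI2 over NHD13, 2 over control and 0 in NHD13 over control. With DESeq2 these counts were 3, 4 and 2, and at an adjusted p under 0.05 they were 2, 4 and 1. Leaving out 1 library gave 0 to 1, 1 to 3 and 0 to 1. Over control the count was 1 with a mean of at least 50 counts, which removes Spry4 from the test, and 1 with the names as deposited, where the row named Spry4 holds the counts given here to Spry2. With a replicate block 1 gene was called in labelled NHD13/MSI2 over NHD13, Dusp6 (log2 fold change 1.62, adjusted p = 0.00925), and over control Spry4 passed no longer (−7.68, adjusted p = 0.0132) and Spred1 did (−0.95, adjusted p = 0.00968). Deviations from the group mean correlated by −0.0716 to 0.194 between same-numbered libraries and by −0.194 to 0.153 between differently numbered ones. The deviations of the 2 NHD13 libraries mirror each other, so these values cannot decide whether the numbers mark pairs. The non-overlapping genes in labelled NHD13/MSI2 over NHD13 went from 5 to 4 with library totals alone. Over all genes, 423, 1474 and 138 were called in the 3 comparisons. DESeq2 called 1286, 2589 and 594, an adjusted p under 0.05 gave 1177, 2745 and 386, and leaving out 1 library gave 128 to 646, 647 to 2066 and 38 to 251. The replicate block gave 203 for the first comparison, and fits to only the groups compared gave 30 for the first and 83 for the last. With library totals alone the median of all genes moved to −0.225 in labelled NHD13/MSI2 over NHD13 and to −0.223 over control, and 90.4% and 73.0% of called genes were lower, beside 81.6% and 59.4%. Of the 80 pathway genes, 0, 7 and 0 were called. DESeq2 called 6, 15 and 3, an adjusted p under 0.05 gave 4, 15 and 3, the names as deposited gave 2, 12 and 1, and leaving out 1 library gave 0 to 1, 1 to 8 and 0 to 1.

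Signs turned in 17 values, none of them past the threshold in the reported fit except Spry2, Rps6ka2 and Rps6ka3 over control with names as deposited. With those names, which point to other genes, labelled NHD13/MSI2 over control gave 0.14 for Spry2, 0.0026 for Spred1, −0.034 for Rps6ka2 and 0.31 for Rps6ka3, labelled NHD13/MSI2 over NHD13 gave −0.096 for Spred1, and NHD13 over control gave 0.22, 0.098 and 0.10 for Spry2, Spred1 and Spred2. In labelled NHD13/MSI2 over NHD13, leaving out NHD13 replicate 2 gave −0.032 for Spred1, −0.49 for Dusp4 and −0.18 for Etv5, leaving out NHD13 replicate 1 gave 0.17 for Spred2, and leaving out labelled NHD13/MSI2 replicates 3 and 2 gave −0.30 for Dusp4 and −0.13 for Etv5. Over all fits without 1 library, the other end of the range was 0.77 for Spred1, −0.71 for Spred2, 2.76 for Dusp4 and 0.98 for Etv5 in that comparison. In NHD13 over control, Spry1 was 0.49 without NHD13 replicate 2, and Dusp5 was −0.26 without control replicate 1 and −1.39 without NHD13 replicate 1, with ranges that reached −1.97 for Spry1 and 0.85 for Dusp5. Where 1 NHD13 library is left out, the other is assumed to vary like the other groups. The cause of these turns was not tested. Of the other single-gene values, 565 stayed on their side of the threshold, 32 dropped below it and 19 rose past it. Depth limits Etv4, Spry4, Spry1 and Dusp5 the most, with 3 counts worth 0.120 to 0.195 CPM.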
